A study of Saccharomyces cerevisiae with 8 samples.

Results

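Most genes of budding yeast have no intron, and the intron genes are known mainly for those that encode ribosomal proteins. Taken here are the others, the nuclear protein-coding genes whose coding sequence is interrupted by an intron and whose product is not a ribosomal protein. They were chosen by structure alone, from the R64 reference annotation, as genes with at least 2 coding segments set apart by at least 10 bp, leaving out ribosomal protein genes (RPGs, by symbol) and 3 other genes by name (EFB1, TEF4 and PRE3). This gave 179 of 6002 genes. The annotation holds 271 genes with a coding intron, of which 89 were RPGs. Actin, encoded by ACT1, is the best known of the 179.

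RNA polymerase II (RNAPII) transcribes exons and introns alike, so it passes over an intron as well as the exons on either side. Its level need not be the same on each part. The intron is then cut out of the transcript by the spliceosome, in yeast often while the polymerase is still on the gene. The spliceosome reads a 5′ splice site, a branch point and a 3′ splice site, which in budding yeast are close to fixed sequences. Peaks of RNAPII chromatin immunoprecipitation (ChIP) therefore report where the polymerase was found along the gene, not whether the intron was removed.

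The strains were W303a haploid yeast grown at 30 °C to mid-log phase in synthetic complete medium, and both carried an HA epitope on Tfg1, the largest protein of TFIIF, a general transcription factor. Tfg1-HA cells had the normal protein sequence. In Tfg1-K60,61R-HA cells lysines 60 and 61, which accept the small protein modifier SUMO, were arginines. By its description this Tfg1 also bore an inadvertent missense change, whose effect and that of the lysines cannot be told apart. Each strain gave 2 libraries immunoprecipitated with 8WG16, an antibody to the large RNAPII subunit, and 1 list of broad peaks was used for each. ChIP does not separate fewer cells with polymerase on a gene from less polymerase per cell.

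Replicates 1 and 2 of Tfg1-HA held 1257 and 1171 peaks, and those of Tfg1-K60,61R-HA 1098 and 894, over 1334 to 2170 kb. They give no read counts, so the depth reached in each library is unknown, though the study states a nominal depth per sample. The lists go partly against their labels: peaks are named in capitals in replicate 1 of both strains and in lower case, the yeast style for a mutant allele, in replicate 2 of both, and the lists themselves were deposited under names of the same pattern. Read by case, replicate 2 of Tfg1-HA would swap strains with replicate 1 of Tfg1-K60,61R-HA. The deposited names also carry a number, the same for both lists of a labelled strain and different between the strains. What this number stands for is not stated, so a labelled difference cannot be told apart from one that follows the number. The labels were kept, and the main results are also given with the swap. Values that separate the strains as labelled always overlap after it, by construction, so every non-overlap stated here for the labelled lists holds for the labels only. Left out were 894 rows of Tfg1-K60,61R-HA replicate 1 that repeat the whole list of replicate 2.

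The introns of 4 genes in which a peak began inside the intron are shown first, since several results depend on the position of that edge. These genes do not stand for all introns that held such an edge, and others that went another way are given below. The sequences are the coding strand of the R64 reference (RefSeq), with capitals on the first 6 bases, on the branch point motif TACTAAC and on the last 3 bases. The COF1 intron lies at chrXII:40222-40400 on the minus strand, LSM7 at chrXIV:350958-351053 on the plus strand, VMA10 at chrVIII:187515-187676 on the minus strand and SEC14 at chrXIII:424998-425153 on the plus strand.
COF1: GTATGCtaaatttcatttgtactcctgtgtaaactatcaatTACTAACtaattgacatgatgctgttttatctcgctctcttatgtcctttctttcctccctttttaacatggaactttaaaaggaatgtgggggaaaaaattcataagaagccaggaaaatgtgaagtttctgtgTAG
LSM7: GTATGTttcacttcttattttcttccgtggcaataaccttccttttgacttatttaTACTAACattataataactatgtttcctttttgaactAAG
VMA10: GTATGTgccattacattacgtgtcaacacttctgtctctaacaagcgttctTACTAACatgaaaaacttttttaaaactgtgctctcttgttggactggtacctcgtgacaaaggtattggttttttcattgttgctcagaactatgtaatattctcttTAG
SEC14: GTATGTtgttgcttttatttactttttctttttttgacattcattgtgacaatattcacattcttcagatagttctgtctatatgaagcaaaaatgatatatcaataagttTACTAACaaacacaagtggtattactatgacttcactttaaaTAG

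The actin intron is shown by its ends, the first 20 bases at chrVI:54667-54686 and the last 60 at chrVI:54378-54437, both on the minus strand. The HAC1 intron, at chrVI:75840-76091 on the plus strand, is shown for contrast. HAC1 encodes the transcription factor of the unfolded protein response, and its intron is removed not by the spliceosome but by the kinase and nuclease Ire1 and the tRNA ligase.
ACT1 start: GTATGTtctagcgcttgcac
ACT1 end: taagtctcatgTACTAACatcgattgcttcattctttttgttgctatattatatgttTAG
HAC1: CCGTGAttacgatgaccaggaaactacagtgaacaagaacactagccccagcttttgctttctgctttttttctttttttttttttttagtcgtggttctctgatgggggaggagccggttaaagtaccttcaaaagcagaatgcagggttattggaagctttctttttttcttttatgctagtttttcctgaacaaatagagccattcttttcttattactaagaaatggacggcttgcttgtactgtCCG

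The 179 genes held 187 introns, since 8 genes had 2 each, and the length of intron sequence per gene ranged from 49 to 1002 bp with a median of 99. The motif GTATGT stood at the first 6 bases of 134 introns (71.7%), and TACTAAC stood on the coding strand of 144 (77.0%). In the last 100 bases of the intron, or in the whole of a shorter one, TACTAAC was found in 135 (72.2%), against 0.581% of 120705 windows of 100 bases of the genome read on the plus strand and 1.17% read on both. The introns ended in TAG in 91 cases, in CAG in 80 and in AAG in 13. Among the 46 introns of genes occupied in at least 1 list, 38 (82.6%) began with GTATGT and 38 held TACTAAC. Among the 141 introns of genes occupied in none, 96 (68.1%) and 106 (75.2%) did. Among the 22 introns of genes occupied in all 4 lists, 16 (72.7%) and 17 (77.3%) did, close to the shares of all 187 introns. The RPG introns, 91 in all, held TACTAAC in 85 (93.4%).

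A gene was called occupied when at least 50% of the stretch from start to stop codon lay under peaks. By this call 39 and 36 of the 179 intron genes were occupied for Tfg1-HA, replicates 1 and 2, and 29 and 23 for Tfg1-K60,61R-HA. As shares these were 21.8%, 20.1%, 16.2% and 12.8%, where 19.9%, 17.3%, 16.9% and 12.7% of all genes were occupied in the same lists. The groups did not overlap. Tfg1-HA had a mean of 37.5 ± 2.12 genes and Tfg1-K60,61R-HA one of 26.0 ± 4.24 genes (± SD, n = 2 lists each), the second mean minus the first being -11.5 genes (two-sided exact permutation p = 0.333, the smallest that 2 lists against 2 allow). With the lists in doubt (replicate 2 of Tfg1-HA, replicate 1 of Tfg1-K60,61R-HA) exchanged, the means were 34.0 ± 7.07 and 29.5 ± 9.19 genes (SD, n = 2), a difference of -4.5 genes that was smaller than either SD. With peaks of at least 2-fold only, the labelled groups overlapped and the difference was -3.5 genes (two-sided exact permutation p = 0.667).

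Non-ribosomal genes without a coding intron moved the same way. Of these 5683 genes, Tfg1-HA had 1014 and 865 occupied and Tfg1-K60,61R-HA 847 and 601, a fall of 22.9% in the mean. For the intron genes the mean fell by 30.7%. The gap between the occupied shares, intron genes minus the others, was 3.95 and 4.89 percentage points in Tfg1-HA and 1.297 and 2.27 in Tfg1-K60,61R-HA, a difference of -2.63 points (two-sided exact permutation p = 0.333). This difference turned to 0.961 points with the exchanged lists and to 0.130 points when only peaks of at least 2-fold were used. The intron-bearing RPGs were all occupied in all 4 lists.

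**Figure D1:**
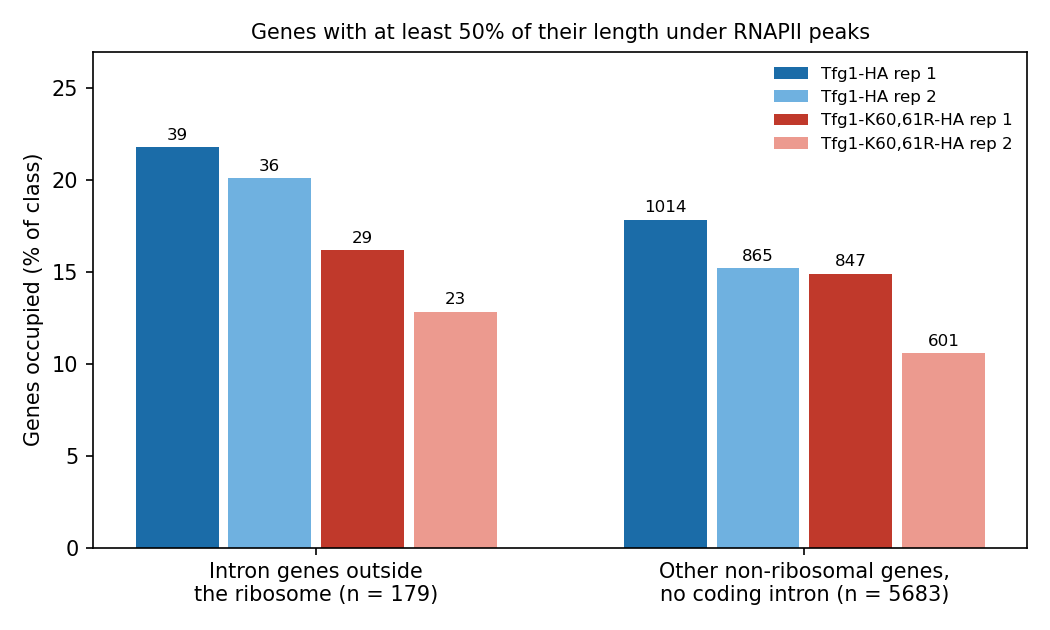
Share of genes occupied (%, vertical axis) in each of the 4 peak lists, for the 179 intron genes outside the ribosome and the 5683 non-ribosomal genes without a coding intron. The number over each bar is the count of genes occupied. In both classes the bars of Tfg1-HA stand above those of Tfg1-K60,61R-HA, with 39 and 36 against 29 and 23 intron genes.

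In total 43 intron genes (24%, against 22.8% of all genes) were occupied in at least 1 list and 21 (11.7%, against 10.8%) in all 4. A peak touched 75 of them (41.9%, against 39.8%) in at least 1 list, and 104 were touched in none. The genes occupied in every list came from many functions: the cytoskeleton (ACT1, the cofilin COF1 and the tubulin-folding factor CIN2), the cell surface and membrane traffic (ECM33, SFT1, YIP3, YOP1 and the vacuolar ATPase subunits VMA9 and VMA10), RNA biology (LSM7, YRA1, HRB1), transcription (HAC1 and GCR1, an activator of glycolytic genes), respiration (COX5B), ubiquitin conjugation (UBC4), the phosphatase GLC7, the IMP dehydrogenase IMD4, the ribosome-bound protein ASC1, the nucleotide hydrolase HNT1 and CMC4. The count of 21 genes is close to the share of all genes, so it says nothing particular about intron genes.

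ACT1 was covered from end to end in all 4 lists. Its first exon has 10 bp, its intron 309 bp and its last exon 1118 bp, and each was at 100% throughout. The fold enrichment over input of the peak on ACT1 was 2.88 and 2.46 in Tfg1-HA and 2.31 and 2.02 in Tfg1-K60,61R-HA, which placed it at percentiles 81.0, 73.1, 74.8 and 71.1 of the genes touched in each list. The folds of the groups did not overlap, while the percentiles did. The peak also covered the GTPase gene YPT1 in 3 of the 4 lists and not in Tfg1-K60,61R-HA replicate 2.

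Other genes high in the ranking had a peak to themselves. ASC1, whose intron carries the snoRNA SNR24, had folds of 3.57 and 4.19 in Tfg1-HA and 3.13 and 2.71 in Tfg1-K60,61R-HA. HAC1 had folds of 4.12 and 3.20 against 2.84 and 2.47. VMA9, a gene with 2 introns, had folds of 3.37 and 3.61 against 2.87 and 2.41. At all 3 genes the folds of Tfg1-K60,61R-HA lay below those of Tfg1-HA, and no other gene was occupied under the same peak. The ER-shaping protein gene YOP1, also alone under its peak, overlapped, with 3.25 and 2.36 against 2.62 and 1.71. Of the 40 intron genes touched in all 4 lists, 24 (60%, against 60.1% of the 1202 such genes of any kind) had lower folds in each Tfg1-K60,61R-HA list, and 2 (5%, against 4.08%) had higher ones. HNT1 was higher, with 2.18 and 2.13 against 2.28 and 2.23, under a peak shared with other genes. Folds of broad peaks are means over the whole peak, and their scale was not matched between lists, so they were not tested.

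For several genes the fold was that of a neighbour as well. CMC4, which encodes a small mitochondrial protein and stood at percentiles 90.3 to 93.2, lay under a peak shared with the ribosomal protein gene RPL36A in all 4 lists. SFT1, a Golgi SNARE, shared its peak with RPL14A. YRA1, an mRNA export adaptor, and COI1 shared theirs with RPP2B in 3 lists. LSM7, a subunit of the Lsm ring that binds U6 RNA, shared its peak with the pheromone gene MFA2. The part of the neighbours in these values was not tested. Of the occupied genes, 17 of 39, 13 of 36, 14 of 29 and 7 of 23 had another gene occupied under the same peak, and an RPG was under it for 5, 5, 5 and 2.

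Over the 40 intron genes touched in all 4 lists the median fold percentile was 59.9 and 55.1 in Tfg1-HA and 60.8 and 54.3 in Tfg1-K60,61R-HA. The groups overlapped, and the difference of 0.04 percentile points was far below the SDs of 3.40 and 4.60 (n = 2, two-sided exact permutation p = 1). Of the 40 genes, 15 (37.5%, against 43.9% of the 1202 genes touched in all 4 lists) had percentiles that were lower in each Tfg1-K60,61R-HA list than in each of Tfg1-HA, and 6 (15%, against 9.65%) had higher ones. With the exchanged lists the groups did not overlap, at 60.4 ± 0.632 and 54.7 ± 0.568 (SD, n = 2). The difference was -5.66 points (two-sided exact permutation p = 0.333).

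Measured by length instead of by call, each Tfg1-K60,61R-HA list fell below each Tfg1-HA list in coverage at 26 intron genes (14.5%, against 8.86% of all genes) and stood above at 0 (0%, against 1.17%). Genes of membrane traffic gave 7 of the 26, RNA processing 4, the cytoskeleton 3, and transcription, signalling and metabolism 2 each. Leaving out a list can raise such a count for any gene set but cannot lower it. Counts with a list left out were not taken over all genes, so nothing is read from them here. With the exchanged lists the count was 9 lower (5.03%, against 7.5% of all genes) and 1 higher. Between the 2 lists whose names and labels agree (Tfg1-HA replicate 1, Tfg1-K60,61R-HA replicate 2), the latter's coverage was lower at 55 genes (30.7%, against 24.3%) and higher at 4.

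Occupied in Tfg1-HA replicates 1 and 2 alike, and in neither list of Tfg1-K60,61R-HA, were 5 intron genes (2.79%, against 1.73% of all genes), and the reverse held for 0 (against 0.15%). With the exchanged lists the first count was 1 (0.559%, against 0.983%), below the share of all genes. Here too, leaving out a list can raise either count but cannot lower it, and shares of all genes were not taken for those settings. SAR1, the GTPase that starts the COPII vesicle coat, was covered at 100% in both Tfg1-HA lists and at 0% in both Tfg1-K60,61R-HA lists, with a fold of 1.36 and 1.31. RCF3, which encodes a mitochondrial protein of the respiratory chain, was covered at 91.9% and 83.8% against 0% and 0%, under a peak shared with RIB5. DYN2, the dynein light chain, was covered at 91.9% and 81.3% against 0% and 0%. These 3 genes had no peak at all in Tfg1-K60,61R-HA. Their Tfg1-HA folds were from 1.24 to 1.49, at percentiles 2.89 to 37.9 of the genes touched.

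The other genes of the 5 kept a peak on part of the last exon. RPO26, which encodes a subunit shared by all 3 nuclear RNA polymerases, was covered at 66.7% and 85.7% in Tfg1-HA and at 23.9% and 29.2% in Tfg1-K60,61R-HA. ERD2, the receptor that returns lumenal proteins to the endoplasmic reticulum, was covered at 68.4% and 92.5% against 48.2% and 16.1%, so that Tfg1-K60,61R-HA replicate 1 missed the 50% line narrowly. At MMS2, a partner of the ubiquitin-conjugating enzyme Ubc13, coverage lay around that line in all lists, at 59.9% and 49.7% in Tfg1-HA and 53.5% and 44.3% in Tfg1-K60,61R-HA, and the groups overlapped.

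Exons and introns were then compared within genes. Over the 43 genes occupied in at least 1 list, the first exon was covered on average at 71.3% and 69.1% in Tfg1-HA and 49.0% and 41.1% in Tfg1-K60,61R-HA. The intron was covered at 76.5% and 81.2% against 59.8% and 46.2%. The last exon was covered at 91.8% and 83.0% against 69.0% and 61.0%. Over these genes the mean was highest on the last exon in each list. The occupied call counts length, and the last exon is often the longest part of the gene, so this order also follows in part from the choice of genes. Of the 43 genes, 12 were occupied only in Tfg1-HA lists and 1 only in a Tfg1-K60,61R-HA list, so lower means for Tfg1-K60,61R-HA follow in part from the choice of genes, and they were not tested. Over the 21 genes occupied in all 4 lists the first exon was covered at 90.5% and 81.0% in Tfg1-HA and 76.0% and 74.6% in Tfg1-K60,61R-HA, the intron at 93.3% and 97.4% against 89.5% and 82.9%, and the last exon at 99.7% and 99.6% against 97.9% and 98.2%. The means differed by -10.4, -9.13 and -1.64 points, and the labelled groups did not overlap in any of the 3 parts. Choosing genes occupied in every list holds the last exon, often the longest part, near full coverage and leaves the shorter parts free to fall. Many first exons are so short that they are covered or bare as a whole. These 3 differences were not compared with genes of any kind, so no loss particular to the 5′ end is read from them.

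Over all 179 genes, the 104 untouched ones included, exons were covered at 24.2% and 22.0% in Tfg1-HA and 17.7% and 15.2% in Tfg1-K60,61R-HA, a difference of -6.65 points (two-sided exact permutation p = 0.333). Introns were covered at 20.8% and 21.4% against 15.7% and 11.6%, a difference of -7.42 points (two-sided exact permutation p = 0.333). Over these 179 genes the first exon stood at 20.9%, 18.9%, 13.9% and 12.1%, above the intron in the first and last of these lists and below it in the other two. With the exchanged lists the differences of exons and introns were -2.29 and -1.72 points, below the SDs of 3.58 to 6.91 points. The gap between last exon and intron, over the 75 genes touched in at least 1 list, was 13.0 and 4.10 points in Tfg1-HA and 8.33 and 11.7 in Tfg1-K60,61R-HA. The groups overlapped, and the difference of 1.47 points changed sign with the exchanged lists (-2.76 points), with replicate 2 of Tfg1-HA left out (-3.01 points) and with replicate 2 of Tfg1-K60,61R-HA left out (-0.22 points).

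**Figure D2:**
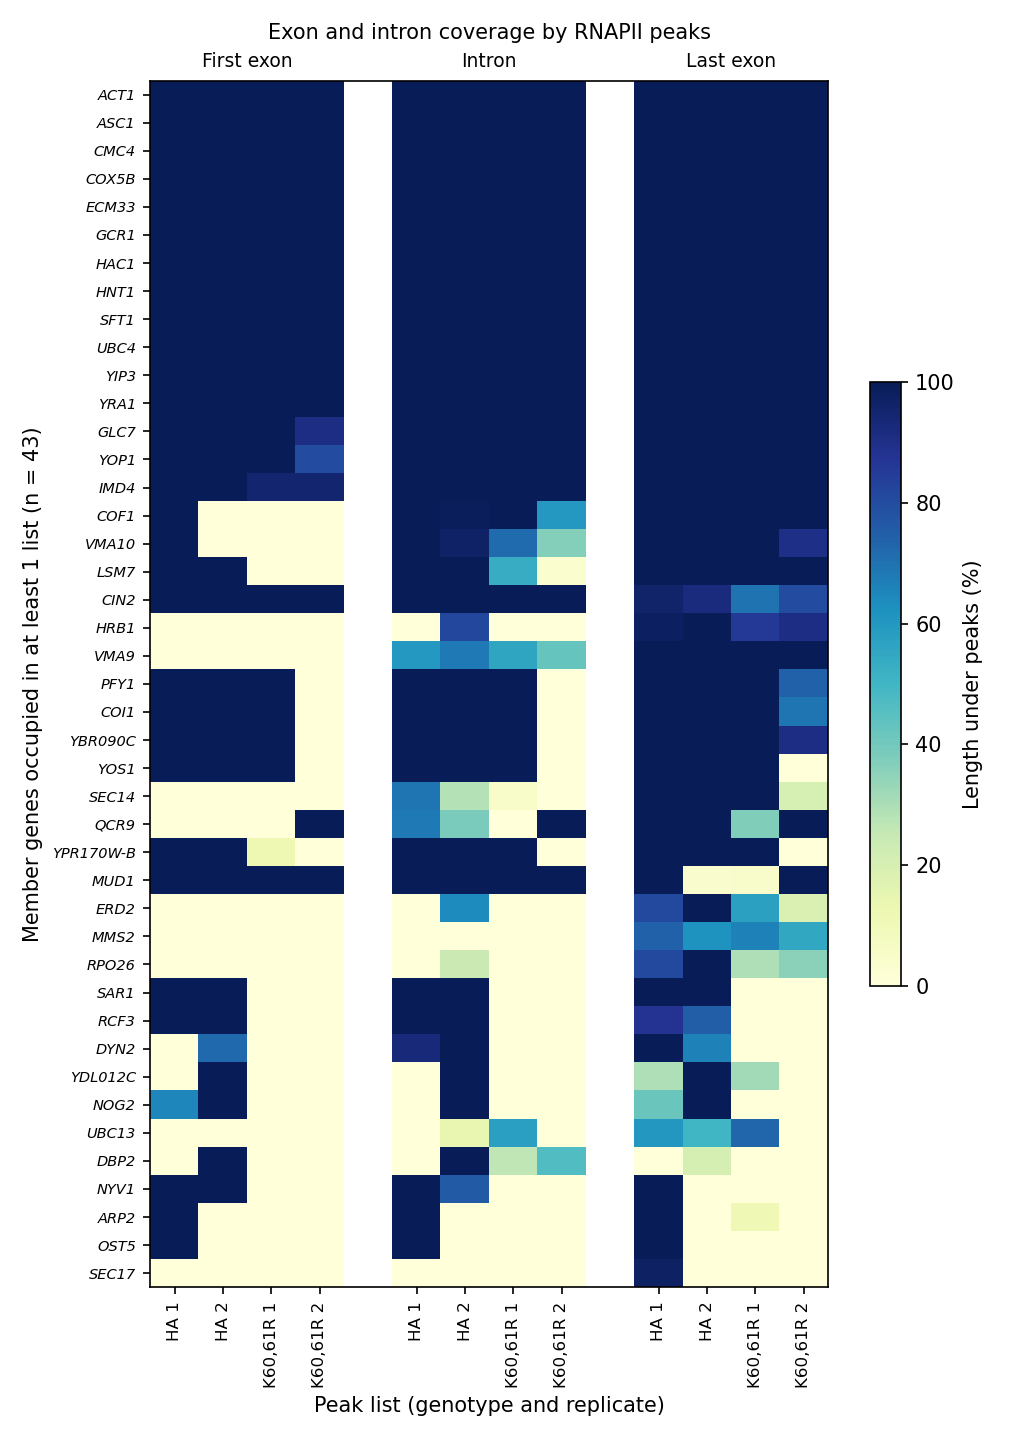
Share of the first exon, the intron and the last exon under peaks (%, colour) for the 43 intron genes occupied in at least 1 list, one row per gene and one column per peak list, with genes occupied in more lists at the top. The 12 uppermost rows are at 100% throughout, and in the rows below the pale cells lie mostly in the first exon and in the Tfg1-K60,61R-HA columns. The paler Tfg1-K60,61R-HA columns follow in part from the choice of genes, of which 12 were occupied only in Tfg1-HA lists and 1 only in a Tfg1-K60,61R-HA list.

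The plot of exon and intron coverage shows how genes differed. In 12 of the 43 genes all 3 parts were covered in full in all 4 lists. In 8 the first exon was under no peak in any list. The occupied genes whose first exon was bare while a peak lay on the last exon numbered 9 and 8 in Tfg1-HA and 8 and 5 in Tfg1-K60,61R-HA. First exons of these genes are short, 30 bp or less in 78 of the 179, so a first exon goes from covered to bare with a small shift of a peak edge.

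Among the 43 genes, HRB1, which encodes a shuttling protein that binds mRNA, had the largest mean gap between last exon and intron. Its last exon was covered at 97.8% and 100% in Tfg1-HA and 86.2% and 90.9% in Tfg1-K60,61R-HA, and its intron of 342 bp at 81.3% in Tfg1-HA replicate 2 and 0% in the other lists. MMS2, RPO26, SEC14 and ERD2 followed, all with a bare first exon in all 4 lists. Of the 43, MUD1 had the most negative gap. At this gene, which encodes a protein of the U1 snRNP, the first exon and intron were covered in full in all lists and the last exon at 100%, 4.05%, 4.61% and 100%, in the order of replicates 1 and 2 of Tfg1-HA, then of Tfg1-K60,61R-HA. This did not follow the labelled strains, and the peak on MUD1 also covered TEF2, a translation elongation factor gene, in all 4 lists.

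DBP2, which encodes a DEAD-box RNA helicase and has the longest intron of the set (1002 bp), had peaks that lay wholly inside the intron in both Tfg1-K60,61R-HA lists. They covered 26.4% and 46.8% of the intron and none of either exon. In Tfg1-HA replicate 2 the peak took in the first exon and the intron in full and 20.7% of the last exon, and in Tfg1-HA replicate 1 there was no peak. NYV1, a vacuolar SNARE, was covered in full in Tfg1-HA replicate 1, over 75.9% of the intron but 0% of the last exon in Tfg1-HA replicate 2, and nowhere in Tfg1-K60,61R-HA. At both genes the Tfg1-HA replicates differed widely from each other.

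**Figure D3:**
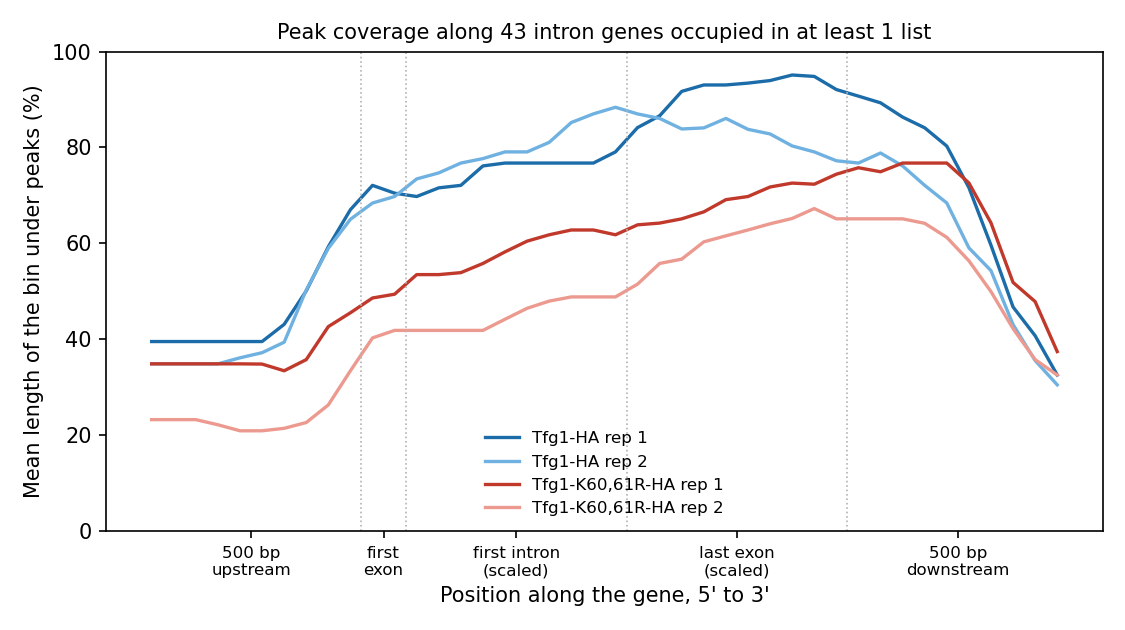
Mean share of each bin under peaks (%, vertical axis) along the 43 intron genes occupied in at least 1 list, from 500 bp upstream over the first exon, the first intron and the last exon to 500 bp downstream, with gene parts scaled to a common width and one line per peak list. Coverage is higher over the intron than over the upstream flank in all 4 lists and falls along the last exon in Tfg1-HA replicate 2. Over the first exon and the intron both Tfg1-K60,61R-HA lines lie below both Tfg1-HA lines. This follows in part from the choice of genes, 12 of which were occupied only in Tfg1-HA lists and 1 only in a Tfg1-K60,61R-HA list.

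The first coding base lay under a peak in 31 and 29 of the 43 genes in Tfg1-HA and in 20 and 15 in Tfg1-K60,61R-HA. The last coding base did so in 39 and 33 against 32 and 28. In each list more genes were covered at the 3′ end than at the 5′ end. The lower counts of Tfg1-K60,61R-HA follow in part from the 12 genes that were chosen through Tfg1-HA lists only. The 1186 non-ribosomal genes without an intron that were occupied in at least 1 list gave 72.8% and 61.3% against 54.0% and 40.8% at the first base and 87.3% and 76.1% against 79.1% and 61.0% at the last, where the labelled groups overlapped.

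For the 21 genes occupied in all 4 lists the 5′ edge of the peak could be followed. Its median position was -186 and -165 bp from the first coding base (negative is upstream) in Tfg1-HA and -169 and -70 bp in Tfg1-K60,61R-HA. At 11 of the 21 genes every edge lay within 700 bp of that base. At others it lay further off, as at HNT1 (-3017 and -3018 bp in Tfg1-HA) and ACT1 (-1799 and -1266 bp), whose peaks there also covered other genes. Such edges need not belong to the intron gene, and they enter the medians and counts given here. The edge lay further downstream in both Tfg1-K60,61R-HA lists than in both Tfg1-HA lists at 11 genes (52.4%, against 65.1% of the 651 genes of any kind occupied in all 4 lists) and further upstream at 0 (against 2.92%). The median shift was 47.5 bp for the intron genes and 72 bp for all 651. The 3′ edge lay further upstream in both Tfg1-K60,61R-HA lists at 7 genes (33.3%, against 31.8%) and further downstream at 1 (4.76%, against 8.45%). With the exchanged lists the 5′ edge lay downstream at 9 of the 21. The 651 genes were not counted for that setting, so this number has no background.

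Several of these edges crossed into the introns shown. At LSM7 the peak began 62 and 57 bp before the start codon in Tfg1-HA, and at base 46 and base 94 of the 96-bp intron in Tfg1-K60,61R-HA. The edge of Tfg1-K60,61R-HA replicate 1 lay before TACTAAC, which starts at base 57, and that of replicate 2 lay in the closing AAG. All of the first exon and most of the intron of LSM7 were therefore bare in replicate 2, where 3.13% of the intron was covered, against 53.1% in replicate 1 and 100% in both Tfg1-HA lists.

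At VMA10 the peak began 24 bp before the start codon in Tfg1-HA replicate 1 and at base 6 of the 162-bp intron in replicate 2. In Tfg1-K60,61R-HA it began at bases 47 and 104, on either side of TACTAAC at base 52. Coverage of the VMA10 intron was 100% and 96.9% in Tfg1-HA and 71.6% and 36.4% in Tfg1-K60,61R-HA, and the groups did not overlap. VMA10 encodes a subunit of the stalk of the vacuolar proton pump, and no other gene was occupied under its peak.

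COF1 and SEC14 gave less separation. At COF1 the peak began 11 bp before the start codon in Tfg1-HA replicate 1, at bases 3 and 1 of the 179-bp intron in replicate 2 of Tfg1-HA and replicate 1 of Tfg1-K60,61R-HA, and at base 73 in Tfg1-K60,61R-HA replicate 2. The groups overlapped by 2 bp. At SEC14, which encodes a phosphatidylinositol transfer protein of the Golgi, the edge lay at bases 49 and 113 of the 156-bp intron in Tfg1-HA and at base 149 in Tfg1-K60,61R-HA replicate 1. In Tfg1-K60,61R-HA replicate 2 the SEC14 peak covered only 20.3% of the last exon and none of the intron.

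**Figure D4:**
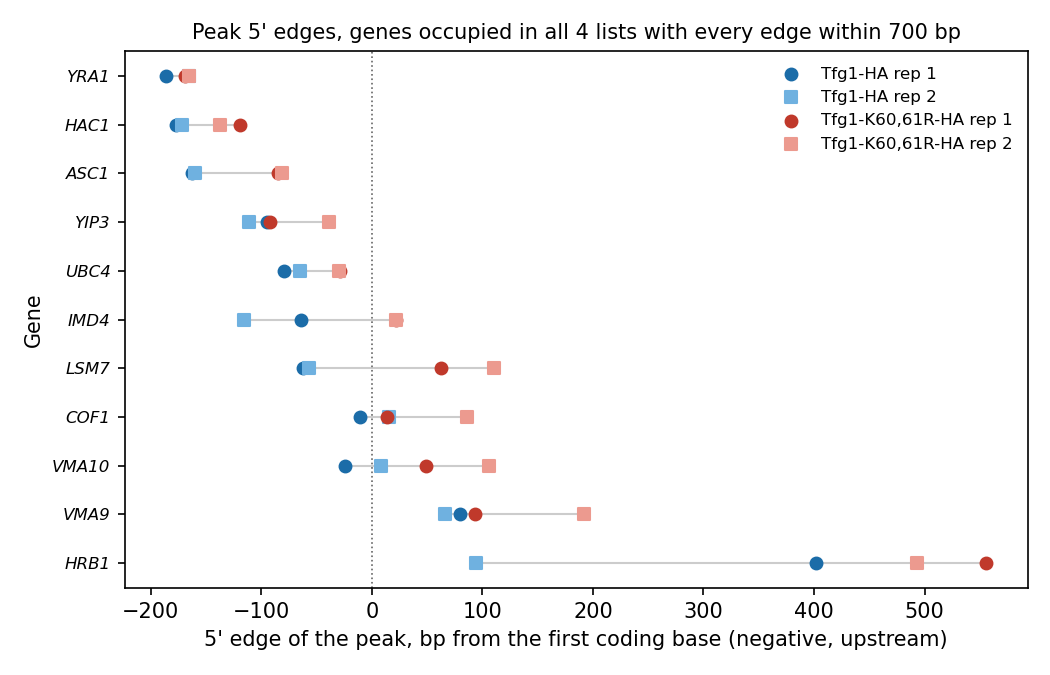
Position of the 5′ edge of the peak (bp from the first coding base, horizontal axis, negative upstream) for the 11 intron genes occupied in all 4 lists whose edges all lay within 700 bp, one point per peak list. At LSM7 and VMA10 both Tfg1-K60,61R-HA points lie to the right of both Tfg1-HA points, while at COF1 the points overlap.

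In all, 8 and 10 peaks of the Tfg1-HA lists and 8 and 5 of the Tfg1-K60,61R-HA lists began inside an intron of the set, and 4, 4, 3 and 5 ended inside one. Not every edge lay further downstream in Tfg1-K60,61R-HA. The QCR9 intron was covered at 68.1% and 38.5% in Tfg1-HA and at 0% and 100% in Tfg1-K60,61R-HA. The UBC13 intron was covered at 0% and 14.2% against 57.5% and 0%. RIM1 had a peak in Tfg1-K60,61R-HA replicate 1 only. Some of the peaks that ended inside an intron covered the 5′ end of the gene only. The α-tubulin gene TUB3, the cap-binding protein gene STO1 and the kinase activator gene MOB2 had first exons covered at 80% or 100% in all 4 lists and last exons at 0% in all 4. The peak on MOB2 was shared with the ribosomal protein gene RPL22B and that on TUB3 with the phosphate transporter gene PHO84 in all 4 lists, while no other gene was occupied under the STO1 peak. The MOB2 intron was covered at 73.7% and 67.5% in Tfg1-HA and 37.7% and 28.9% in Tfg1-K60,61R-HA, and the groups did not overlap, but 4.76% to 8.86% of the peak lay on MOB2. At the STO1 intron they did, with 43.8% and 38.2% against 49.1% and 10.6%.

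By function, read against the 19.9%, 17.3%, 16.9% and 12.7% of all genes occupied in the same order of lists, the 26 genes of membrane traffic and the secretory pathway had 13 and 10 members occupied in Tfg1-HA and 8 and 6 in Tfg1-K60,61R-HA. The 12 cytoskeleton genes had 6 and 5 against 4 and 3. Lower counts in Tfg1-K60,61R-HA were also the rule for all genes, so nothing particular to either function is read from them. The 19 genes of RNA processing and export had 5 and 6 against 4 and 5. That group was taken to include the nucleotide hydrolase gene HNT1, which was occupied in all 4 lists. The 12 genes of transcription and chromatin had 3 and 3 against 2 and 2. The 9 genes of ubiquitin and related conjugation had 2 and 1 against 3 and 1, so that the lists overlapped there. No group of genes gained occupied members in both Tfg1-K60,61R-HA lists.

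Genes tied to the question of Tfg1 and SUMO had no peak. UBC9, the SUMO-conjugating enzyme, and TAF14, the small subunit of yeast TFIIF, both have a coding intron, and no peak touched either in any list. An untouched gene is one whose signal did not pass the peak caller's threshold, not one shown to lack polymerase. The 15 genes of meiosis and the silent mating-type locus, most of which mitotic haploid cells are known to keep off, served as a weak check of the labelled cells. In 0 of the 4 lists was any of them occupied, where 22.8% of all genes were occupied in at least 1 list. No peak touched 14 of them, DMC1 and HMRA1 included. Only 39.8% of all genes were touched in at least 1 list, so untouched genes were common. The exception was MEI4, with peaks over 98.4% and 33.3% of its first exon in the Tfg1-HA lists and none over its intron or last exon. These peaks covered the neighbouring gene ACA1, and only 2.96% and 1.04% of their length lay on MEI4.

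Occupied counts were also taken by gene structure, for which the shares of all genes, 19.9%, 17.3%, 16.9% and 12.7%, are again the background. Of the 32 genes with 200 bp or more of intron, 13 and 15 were occupied in Tfg1-HA and 13 and 10 in Tfg1-K60,61R-HA. Of the 147 genes with less, 26 and 21 against 16 and 13 were. As shares the long introns gave 40.6%, 46.9%, 40.6% and 31.2%, and the short ones 17.7%, 14.3%, 10.9% and 8.84%. The difference was not tested. Genes with long introns were also longer, with a median of 1617 bp from start to stop codon against 824, and the parts of intron and gene length were not tested. The 3 genes that carry a snoRNA in the intron were occupied in at least 1 list, as were 22.8% of all genes. IMD4 and ASC1 were occupied in all 4 lists and NOG2 in 1 only, and 3 genes are too few for a comparison. Within 15 kb of a chromosome end lay 14 genes, among them near-identical helicase copies whose reads cannot be placed with certainty, and 1 of them was touched and 0 were occupied.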

How the data were processed

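RNAPII ChIP-seq with the 8WG16 antibody was analysed in 2 libraries of Tfg1-HA and 2 of Tfg1-K60,61R-HA. Files of the input libraries were not used here. According to the study and the submitters' processing notes, reads were trimmed with TrimGalore, aligned with Bowtie2 (2.3.5.1) to sacCer3, and broad peaks were called with MACS2 (2.2.7.1) in each library against input, without pooling. The deposited lists give each peak a fold ratio over input, averaged over the peak, and p- and q-values on a −log10 scale, all as the authors' caller wrote them. Only peak positions, the fold and, as a filter, the −log10 q-value were used.

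Peaks were laid over the R64 RefSeq annotation, the same build, and the covered share of each gene, exon and intron was computed (Python 3.11.15, NumPy 2.4.6). The fold of a gene was the mean over its peaks, weighted by overlap and ranked among the genes touched in that list. Lists were compared by two-sided exact permutation tests, which with 2 against 2 cannot go below 0.333. The study describes the replicates of each strain as independent and grown as cultures. The differential test of the study needs reads and was not run. The members and gene lists were chosen with earlier results of these data known. Genes named in the text were ACT1, the 15 with the highest mean fold percentile among those occupied in all lists, those occupied only in 1 strain, the 5 largest and 5 smallest gaps between last exon and intron among genes occupied in at least 1 list, and genes of the study's question. Other genes were named after their values were seen. The coverage code was tested on simulated peaks. Alternatives were the fold and q-value filters, the coverage that counts as occupied, exons only, lists of equal size, repeated rows kept, each replicate left out, a replicate block, and lists assigned by the case of their peak names.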

Additional observations from a re-analysis of the deposited data

How the results depend on the processing

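Of 128 values recomputed under alternatives, 78 stayed within the spread between replicates (or within 1.5 times, for counts), 39 moved further and 11 changed sign. The 78 include the values of the replicate block, which could not differ from the main ones. All 128 values are Tfg1-K60,61R-HA minus Tfg1-HA as labelled, unless they are counts. The comparison of the 2 lists whose names and labels agree, and every value on the counts of lower or higher coverage and of 5′ edges, were added after seeing the data.

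With peaks of at least 2-fold only, the differences were -3.5 occupied genes, -1.96 points of exon coverage, -2.87 points of intron coverage, 9.18 points between last exon and intron, 0.130 points in the share against other genes and -18.0 fold percentile points; 1 gene was then occupied in Tfg1-HA lists only and 6 had lower coverage. With lists cut to the 894 strongest peaks each, exon coverage differed by -4.25 points and the fold percentile by 6.59 points; 3 genes were occupied in Tfg1-HA only and 1 had higher coverage. With any overlap counted as occupied, 10 genes were found in Tfg1-HA only and the share against other genes differed by -1.65 points; at 75% under peaks it differed by -4.22 points. With the repeated rows kept, 3 genes had higher coverage.

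With lists assigned by case, the differences were -4.5 occupied genes, -2.29 points of exon coverage, -1.72 of intron coverage, -2.76 between last exon and intron, 0.961 in the share against other genes and -5.66 fold percentile points; 1 gene was occupied only in the first group, 9 had lower and 1 higher coverage. With only the 2 lists whose names and labels agree, they were -16 occupied genes, -8.94 points of exon coverage, -1.34 between last exon and intron, -1.67 in the share and -6.19 fold percentile points; 16 genes were occupied only in Tfg1-HA, 55 had lower and 4 higher coverage, and 21 had a 5′ edge further downstream.

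Leaving out each replicate in turn gave -14.5 to -8.5 occupied genes, -7.88 to -5.43 points of exon coverage, -9.46 to -5.38 of intron coverage, -3.01 to 6.52 between last exon and intron, -3.12 to -2.14 in the share against other genes, -2.63 to 2.02 fold percentile points, 6 to 11 genes in Tfg1-HA only, 0 to 1 in Tfg1-K60,61R-HA only, 28 to 41 with lower and 1 to 9 with higher coverage, and 11 to 19 with a 5′ edge downstream. The ends of these ranges came without Tfg1-K60,61R-HA replicate 1 for the counts in Tfg1-HA only, of lower coverage and of 5′ edges (11, 41 and 19), and without Tfg1-K60,61R-HA replicate 2 for higher coverage (9). Comparing fewer lists can raise counts of this kind for any gene set but cannot lower them. This holds also for the 2 lists whose names and labels agree. Counts with a list left out, and counts of 5′ edges under any alternative, were not taken over all genes. What else set the ends of the ranges was not tested.

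Same-numbered lists deviated together only weakly (correlation 0.123 over 2386 genes), so the numbers were not taken to pair them. A replicate block cannot change a difference between means, so its values were fixed in advance and are no check. They were -11.5 occupied genes, -6.65 and -7.42 points of exon and intron coverage, and 1.47 points between last exon and intron. The share gave -2.63 points and the fold percentile 0.04 points. The exact sign-flip p was at least 0.5, the smallest that 2 pairs allow. Peaks without reads limit all values to whether signal passed the caller's threshold. That threshold moves with the depth of each library, for which the study gives only a nominal value.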
